A study of Mus musculus with 14 samples.

Results

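Toll-like receptors (TLRs) were examined together with CD14, MD-2 and MyD88 in CD11b+ microglia/macrophages of mice at 3 days after traumatic brain injury (TBI). The 10 genes *Tlr1*, *Tlr2*, *Tlr4*, *Tlr6*, *Tlr7*, *Tlr9*, *Tlr13*, *Cd14*, *Ly96* and *Myd88* were chosen by symbol, and each matched 1 of the 33939 genes with a value in the RNA-seq data. All mice were C57BL/6 males of 8 to 12 weeks that carried 1 copy of the tamoxifen-inducible *Cx3cr1-CreER* allele, received tamoxifen and underwent a controlled cortical impact. The Ctrl mice were Cx3cr1-CreER+/- without a floxed allele, and the cKO mice carried in addition a floxed gene that Cre removes from cells that express *Cx3cr1*. CD11b+ cells were taken with magnetic beads from the lesioned, ipsilateral (IL) and the non-lesioned, contralateral (CL) hemisphere, which gave 4 CL and 4 IL libraries of Ctrl and 3 CL and 3 IL libraries of cKO. The 14 libraries carry the numbers of 8 mice, of which 6 (Ctrl 3541, 3545, 3546 and 3551, cKO 791 and 3592) gave both hemispheres, while cKO 784 gave an IL and cKO 788 a CL library. Both hemispheres came from injured brains, so the CL libraries are not those of uninjured mice, and all mice of both genotypes have the Cre in the *Cx3cr1* locus.

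TLRs are membrane receptors for microbial molecules and for molecules released from damaged tissue. TLR1, TLR2, TLR4 and TLR6 sit on the cell surface, where TLR2 pairs with TLR1 or TLR6 to bind lipopeptides, and TLR4 binds lipopolysaccharide with the help of MD-2, the product of *Ly96*, and of the carrier protein CD14. TLR7, TLR9 and TLR13 sit in endosomes and bind single-stranded RNA, unmethylated CpG DNA and bacterial ribosomal RNA, respectively. All of these receptors can signal through the adaptor MyD88, which recruits IRAK kinases and leads to the activation of NF-κB and to the transcription of cytokines and chemokines. Microglia express many TLRs, and monocytes and neutrophils, which enter the injured brain and also carry CD11b, express several of them as well.

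The values are counts per 1000000 reads (CPM), and the depth read from them ranged from 12.2 to 41.6 M reads per library with a median of 34.2 M. The 8 microglial markers summed to 28712 to 35660.3 CPM in Ctrl CL and 14209.6 to 15426 CPM in cKO IL (25115 to 31756 and 13722 to 15007 without *Fcrls*, which was lower in cKO), and neither they nor any other marker listed below was at 0 throughout a group. The summed markers of infiltrating monocytes (8 genes) were at 112 to 896 CPM and those of neutrophils (10 genes) at 197 to 8067 CPM, so markers of myeloid cells other than microglia were present after the sort. Neutrophil markers were most abundant in the CL libraries of Ctrl mice (595 to 8067 CPM).

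The members spanned a wide range of levels. Per kilobase of exon, a scale on which genes can be compared, the mean over the 14 libraries was 1828 ± 796 CPM per kb (SD) for *Cd14*, 392 ± 190 for *Tlr2*, 107 ± 11.1 for *Tlr13*, 59.8 ± 9.05 for *Tlr7*, 55.3 ± 6.31 for *Myd88*, 21.8 ± 4.23 for *Tlr1*, 16.7 ± 3.92 for *Tlr4*, 10.4 ± 1.97 for *Tlr6*, 9.85 ± 2.97 for *Ly96* and 0.9803 ± 0.484 for *Tlr9*. The ranges over the libraries did not overlap between *Cd14* and *Tlr2*, *Tlr2* and *Tlr13*, *Tlr13* and *Tlr7*, *Myd88* and *Tlr1*, or *Ly96* and *Tlr9*. They overlapped between the other neighbours in this order, namely *Tlr7* and *Myd88*, *Tlr1* and *Tlr4*, *Tlr4* and *Tlr6*, and *Tlr6* and *Ly96*. The mRNA of the co-receptor CD14 was thus far above that of TLR4, with 46.1 to 70.8 times as many CPM per kb in the same library in Ctrl CL and 161 to 293 times in cKO IL. The mRNA of MD-2, without which TLR4 does not bind lipopolysaccharide, was the lowest of that complex, and *Tlr4* had 1.22 to 4.64 times its CPM per kb in Ctrl IL and 1.33 to 1.57 times in cKO IL. The upper end of 4.64 belongs to the Ctrl IL library of mouse 3546 alone, in which *Ly96* had 45 reads.

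**Figure D1:**
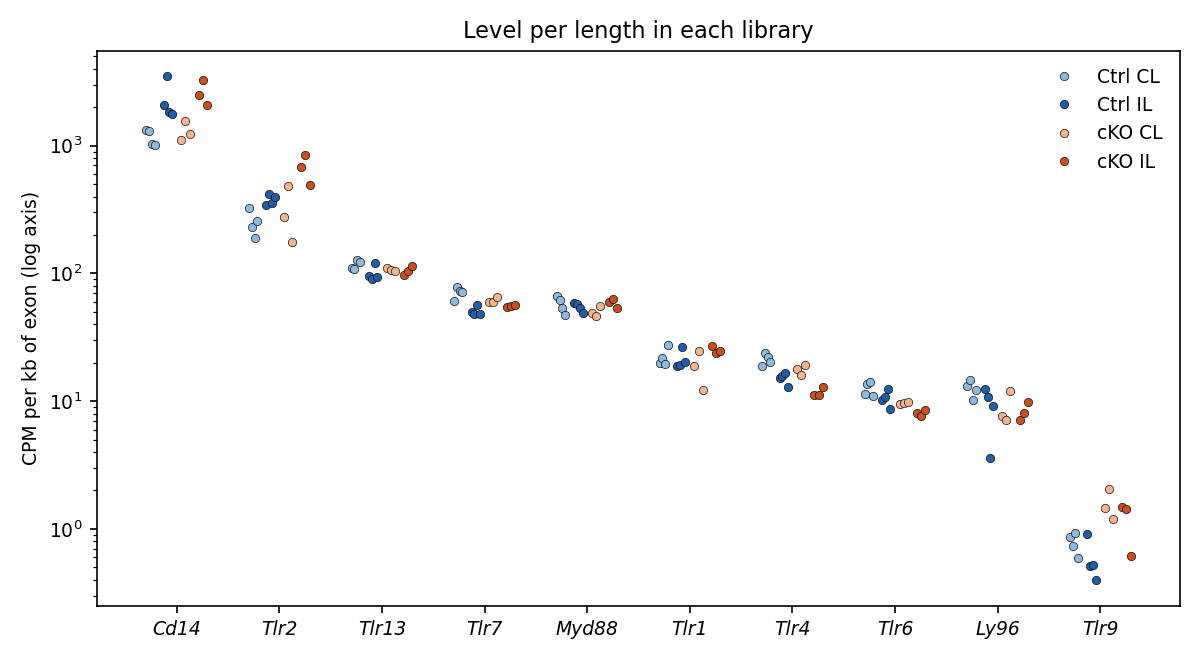
Level of each of the 10 genes per kilobase of exon (CPM per kb, log axis), with 1 point per library coloured by group and genes ordered by their mean. *Cd14* lies above 1000 CPM per kb in every library and *Tlr9* around 1 CPM per kb.

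*Tlr1* and *Tlr6* are neighbouring paralogues, and their values are not independent of each other. *Tlr1* (ENSMUSG00000044827) lies at chr5:64924679-64933563 and *Tlr6* (ENSMUSG00000051498) at chr5:64952031-64960097, both on the minus strand of GRCm38. Their coding sequences were 73.1% identical over the aligned length, and the longest identical run had 229 bases. In all, 873 bases of the *Tlr1* coding sequence lay in words of 31 bases shared with *Tlr6*. The second closest pair of receptors, *Tlr2* and *Tlr6*, was 50.4% identical and shared no word of 31 bases. The run is shown because a read that falls within it cannot be assigned to either gene by its sequence. It lies within 1 coding exon of each gene, at chr5:64925537-64925765 in *Tlr1* and at chr5:64953828-64954056 in *Tlr6* (minus strand), and is followed by 60 coding bases in which capitals mark the 2 positions where the genes differ.
Tlr1 and Tlr6, identical run: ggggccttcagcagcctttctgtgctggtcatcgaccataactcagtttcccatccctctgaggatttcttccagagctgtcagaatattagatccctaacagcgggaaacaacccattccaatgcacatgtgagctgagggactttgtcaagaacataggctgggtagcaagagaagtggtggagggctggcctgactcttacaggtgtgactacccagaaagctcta
Tlr1, next 60 coding bases: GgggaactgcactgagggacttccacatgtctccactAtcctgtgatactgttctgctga
Tlr6, next 60 coding bases: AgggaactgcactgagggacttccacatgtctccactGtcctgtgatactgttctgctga

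The values of *Tlr1* and *Tlr6* were often not whole reads. Converted to reads with the step of each library, *Tlr1* was more than 0.1 reads away from a whole number in 8 of 14 libraries and *Tlr6* likewise in 8, by up to 0.491 and 0.484 reads. Their sum was within 0.0398 reads of a whole number in every library, and *Tlr4*, a receptor without such a paralogue, was within 0.0159 reads. Values that are not whole were not particular to this pair. *Tlr7* stood at 10280.6 reads in Ctrl CL of mouse 3541, and *Myd88* at 6241.22 reads in cKO IL of mouse 791. Among values under 100 reads, 79.0% to 83.5% were whole, by library. Since the sum of *Tlr1* and *Tlr6* was near a whole number, it is given below beside each.

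Between the hemispheres, *Cd14* and *Tlr2* were higher and *Tlr4* was lower on the lesioned side in each of the 6 mice that gave both. In cKO mice these 3 genes were called, which here means an adjusted p no higher than 0.05 together with a change of 1.2-fold or more, against 3811 of 16758 genes (22.7%). In Ctrl mice none of the 10 was called, against 1096 of 16376 genes (6.69%), although 4 of them (*Tlr2*, *Tlr4*, *Tlr7* and *Cd14*) had an unadjusted p under 0.05 in limma, as did 21.2% of all genes. With the mouse as a replicate block these 4 were called in Ctrl, where the block raised the share of all genes called to 20.2%. They were also called in Ctrl with the deposited CPM without further scaling (adjusted p from 0.0369 for *Cd14* to 0.0484 for *Tlr2*), and *Cd14* and *Tlr2* were called with upper-quartile scaling (adjusted p = 0.0452 and 0.0451). In cKO the block rests on the 2 mice with both hemispheres and does not use the libraries of 784 and 788, and it left 1 member called (*Tlr2*), against 12.9% of all genes. By the deposited CPM alone, 4 members did not overlap between the 4 IL and the 4 CL libraries of Ctrl, against 17.7% of all genes tested, and 5 did not overlap between the 3 and 3 libraries of cKO, against 42.4%. After division by the scaling factors used in the fits, 2 did not overlap in Ctrl (*Cd14* and *Tlr7*, against 15.3% of all genes) and 5 in cKO (*Cd14*, *Tlr1*, *Tlr2*, *Tlr4* and *Tlr6*, against 42.5%). In bulk samples, fewer cells of a type and less RNA per cell cannot be told apart.

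**Figure D2:**
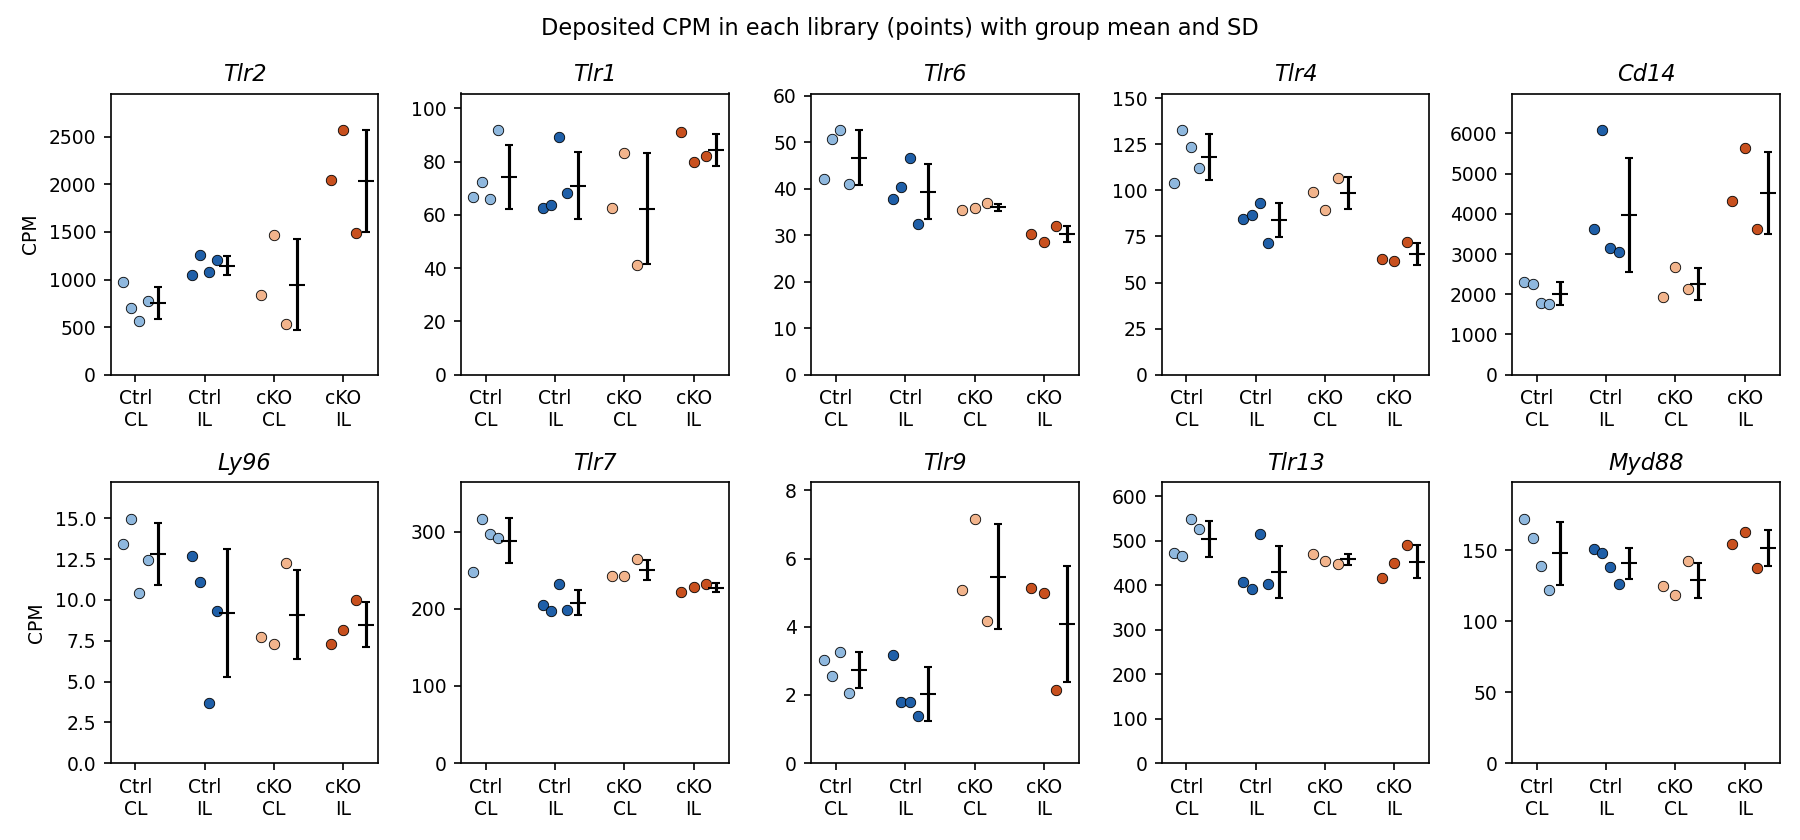
Deposited CPM of the 10 genes in every library (points), by genotype and hemisphere, with the mean and SD of the group as bars beside the points. *Cd14* and *Tlr2* are higher and *Tlr4* is lower in the IL than in the CL libraries of both genotypes.

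CD14, a lipid-anchored protein that passes lipopolysaccharide to TLR4 and also serves TLR2, had the highest mRNA level of the group. *Cd14* (ENSMUSG00000051439) is a gene of 1 exon at chr18:36725067-36726798 on the minus strand. It stood at 2296, 2243, 1775 and 1756 CPM in Ctrl CL (mice 3541, 3545, 3546 and 3551) and at 3614, 6083, 3159 and 3054 CPM in Ctrl IL. In cKO it stood at 1933, 2686 and 2143 CPM in CL (788, 791 and 3592) and at 4332, 5633 and 3622 CPM in IL (784, 791 and 3592). The lowest IL library was above the highest CL library in both genotypes, with the IL library of mouse 3545 the highest of all 14. The log2 fold change was 1.01 ± 0.31 (SE, n = 4 and 4, 2.01-fold) in Ctrl, where the adjusted p was 0.0881 without and 0.00475 with the mouse as a replicate block. Without the Ctrl IL library of mouse 3546, which had the lowest depth, it was 1.17 with an adjusted p of 0.0482. Without the Ctrl IL library of mouse 3545 it was 0.74 with an adjusted p of 0.197. In cKO *Cd14* was 2.09-fold higher in IL (1.07 ± 0.25 on the log2 scale, SE, n = 3 and 3, adjusted p = 0.0188). That call was lost without the IL library of 784 (1.10, adjusted p = 0.0686), without the CL library of 788 (0.98, adjusted p = 0.0710) and without the IL library of 791 (0.86, adjusted p = 0.0629), with the paired fit over 2 mice (0.99, adjusted p = 0.0506) and with all 14 libraries fitted together (1.11, adjusted p = 0.0529).

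TLR4 itself, the signalling receptor for lipopolysaccharide, went the other way. *Tlr4* (ENSMUSG00000039005, chr4:66827584-66930284, plus strand) stood at 104, 133, 124 and 112 CPM in Ctrl CL and at 84.2, 86.9, 93.0 and 71.5 CPM in Ctrl IL. It stood at 98.9, 89.6 and 107 CPM in cKO CL and at 62.5, 61.6 and 72.2 CPM in cKO IL. In deposited CPM every IL library was below every CL library of its genotype, whereas after scaling those of Ctrl overlapped (70.5 to 97.8 in IL, 95.7 to 142 in CL). The 3 cKO IL libraries were in deposited CPM the lowest of the 14 but for the Ctrl IL library of mouse 3551, which lay just under the highest of them. In cKO *Tlr4* fell by 0.51 on the log2 scale (SE 0.10, adjusted p = 0.00900), and it was called in each of the 6 fits that left out a library. The paired fit over 2 mice gave -0.47 with an adjusted p of 0.0575, and the fit of all 14 libraries together gave -0.47 with an adjusted p of 0.0884. In Ctrl the log2 fold change was -0.41 ± 0.17 (SE), with an adjusted p of 0.198 without and 0.0213 with the mouse as a replicate block.

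The opposite directions of *Cd14* and *Tlr4* are also seen within a library, in a ratio that no scaling between libraries changes. The log2 ratio of *Cd14* to *Tlr4* CPM was 3.84 to 4.46 in Ctrl CL and 5.09 to 6.13 in Ctrl IL, and 4.29 to 4.91 in cKO CL and 5.65 to 6.51 in cKO IL. The ratio was thus higher in every IL than in every CL library, with no overlap. The log2 ratio of *Tlr2* to *Tlr4* was 2.20 to 3.22 in Ctrl CL, 3.53 to 4.08 in Ctrl IL, 2.31 to 4.03 in cKO CL and 4.37 to 5.38 in cKO IL, and it did not overlap between the hemispheres of either genotype. Within a genotype, the lack of overlap of both ratios follows from the deposited CPM of the genes, which did not overlap either. The ratios are therefore no separate support, and other pairs of genes were not examined.

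MD-2 (*Ly96*, ENSMUSG00000025779, chr1:16688051-16709611, plus strand), the small secreted protein that forms the lipopolysaccharide-binding pocket with TLR4, stood at 13.4, 14.97, 10.4 and 12.4 CPM in Ctrl CL and at 12.7, 11.1, 3.68 and 9.30 CPM in Ctrl IL. It stood at 7.75, 7.31 and 12.2 CPM in cKO CL and at 7.32, 8.18 and 9.97 CPM in cKO IL. The hemispheres overlapped in both genotypes, and the lowest value was that of the least deep library, Ctrl IL of mouse 3546. The log2 fold change between IL and CL was -0.46 ± 0.38 (SE, adjusted p = 0.572) in Ctrl and -0.0048 ± 0.21 (adjusted p = 0.990) in cKO, with 95% intervals from -1.31 to 0.39 and from -0.48 to 0.47. In Ctrl it was -0.064 (adjusted p = 0.909) without the IL library of 3546 and -0.70 (adjusted p = 0.404) without that of 3541.

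**Figure D3:**
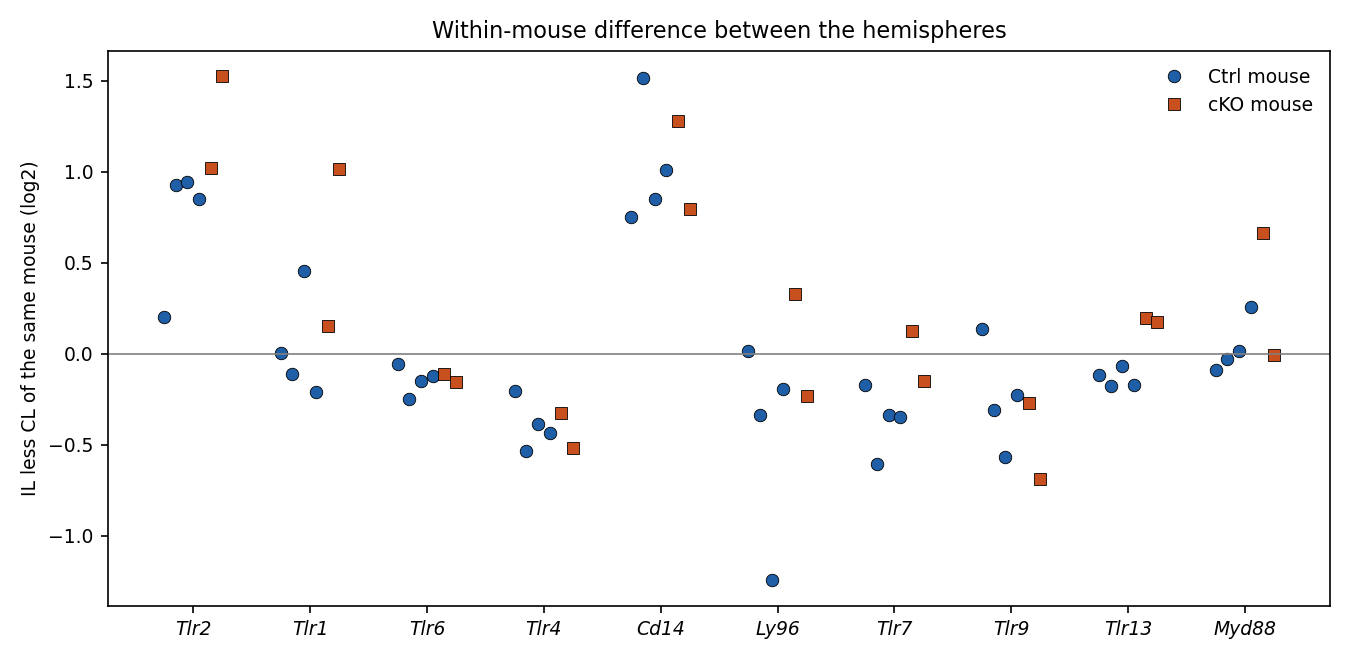
Difference between the IL and the CL library of the same mouse on the log2 scale for each of the 10 genes, with 4 Ctrl mice as circles and 2 cKO mice as squares. *Cd14* and *Tlr2* are above 0 and *Tlr4* and *Tlr6* below 0 in all 6 mice.

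TLR2, the common partner of the lipopeptide receptors, had the largest log2 fold change between the hemispheres among the 7 TLR genes chosen, in both genotypes. *Tlr2* (ENSMUSG00000027995, chr3:83836272-83841767, minus strand) stood at 971, 697, 568 and 774 CPM in Ctrl CL (mice 3541, 3545, 3546 and 3551) and at 1042, 1262, 1079 and 1205 CPM in Ctrl IL. In cKO it stood at 833, 1467 and 531 CPM in CL (788, 791 and 3592) and at 2046, 2569.6 and 1489.6 CPM in IL (784, 791 and 3592). The hemispheres did not overlap in deposited CPM in either genotype, but in cKO the CL library of 791 came close to the lowest IL library, and after scaling those of Ctrl overlapped (499 to 1051 in CL, 962 to 1420.0 in IL). In cKO *Tlr2* was 2.41-fold higher in IL (log2 fold change 1.27 ± 0.37, SE, adjusted p = 0.0428), and it was called with the paired fit over 2 mice as well (1.23, adjusted p = 0.00967). The call was lost without the IL library of 784 (1.25, adjusted p = 0.117), the CL library of 788 (1.26, adjusted p = 0.0962), the IL library of 791 (1.05, adjusted p = 0.140) or the CL library of 3592 (0.91, adjusted p = 0.0669), with upper-quartile scaling (1.24, adjusted p = 0.0519) and without a filter on low values (1.27, adjusted p = 0.0975). In Ctrl the log2 fold change was 0.71 ± 0.23 (SE, 1.64-fold), with an adjusted p of 0.0977 without and 0.0117 with the mouse as a replicate block, and without the CL library of 3541 it was 0.88 with an adjusted p of 0.0401. Within a mouse, the log2 difference ranged from 0.20 in mouse 3541 to 1.53 in mouse 3592.

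The 300 bases around the start of *Tlr2* in RefSeq (GRCm38.p6) held matches to the κB motif of the NF-κB factors, which 8.46% of 32851 promoters of this length hold on either strand. Of the 8 windows read for 6 of the members, this was the only one with a κB match. Other motifs sought in these windows matched elsewhere. These were PU.1 at *Tlr1* and *Tlr9*, AP-1 at *Tlr9*, and the interferon-stimulated response element at *Myd88* and *Tlr6*. Of all promoters, 3.2%, 5.2% and 3.44% held them, respectively. No window was at hand for *Tlr4*, *Tlr7* or *Ly96*, and *Cd14* was left out of the search. The 91 bases that lie before every annotated *Tlr2* start are shown, at chr3:83841768-83841858 on the minus strand, with capitals for overlapping κB matches that lie 14 to 4 bases before the GENCODE start. The match describes these letters only.
Tlr2, 91 bases upstream: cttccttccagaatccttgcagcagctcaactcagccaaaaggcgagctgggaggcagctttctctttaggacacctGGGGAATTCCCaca

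Neither partner of TLR2 was called between the hemispheres of either genotype. *Tlr1*, whose product binds triacylated lipopeptides with TLR2, stood at 66.8, 72.5, 65.8 and 91.8 CPM in Ctrl CL and at 62.6, 63.7, 89.3 and 68.4 CPM in Ctrl IL, and at 62.5, 83.1 and 41.3 CPM in cKO CL and 91.2, 79.8 and 82.0 CPM in cKO IL. The hemispheres overlapped in both genotypes in deposited CPM, and after scaling in Ctrl alone. *Tlr1* gave a log2 fold change of 0.01 ± 0.14 (SE, adjusted p = 0.979) in Ctrl and 0.55 ± 0.22 (adjusted p = 0.110) in cKO, where *Tlr1* was called only with the mouse as a random effect over all 14 libraries (adjusted p = 0.0287) and without the CL library of 791 (0.77, adjusted p = 0.0358). Without the CL library of 3592 the change in cKO was 0.29 (adjusted p = 0.154). *Tlr6*, whose product binds diacylated lipopeptides with TLR2, stood at 42.1, 50.8, 52.6 and 41.0 CPM in Ctrl CL and at 37.8, 40.4, 46.6 and 32.5 CPM in Ctrl IL, and at 35.3, 35.8 and 36.8 CPM in cKO CL and 30.2, 28.6 and 32.0 CPM in cKO IL. The IL library was the lower one in all 6 mice, and the hemispheres did not overlap in cKO, but the log2 fold change of -0.17 ± 0.18 (SE, adjusted p = 0.692) in Ctrl and -0.17 ± 0.09 (adjusted p = 0.188) in cKO did not pass. The sum of both genes was 120.8 ± 9.94 CPM (SD, n = 4) in Ctrl CL, 110.3 ± 17.2 (n = 4) in Ctrl IL, 98.3 ± 20.4 (n = 3) in cKO CL and 114.6 ± 6.49 (n = 3) in cKO IL. In a two-sided exact permutation test over libraries, the sum gave p = 0.314 between the hemispheres of Ctrl (smallest p possible 0.0286) and p = 0.3 in cKO, where 3 against 3 libraries cannot go below 0.10. This test did not use the pairing of hemispheres. Here and between the genotypes it ran on deposited CPM, whereas the fold changes are those of scaled values.

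The endosomal receptors had smaller log2 fold changes between the hemispheres than *Cd14* and *Tlr2*, and none was called. TLR7, the receptor for single-stranded RNA (*Tlr7*, ENSMUSG00000044583, chrX:167304929-167330558, minus strand), stood at 247, 317, 297 and 292 CPM in Ctrl CL and at 205, 197, 232 and 198 CPM in Ctrl IL, without overlap, and at 243, 243 and 265 CPM in cKO CL and 222, 229 and 232 CPM in cKO IL, where they overlapped after scaling (230 to 251 in CL, 226 to 251 in IL). The log2 fold change in Ctrl was -0.39 ± 0.14 (SE), with an adjusted p of 0.152 without and 0.0303 with the mouse as a replicate block, and in cKO it was -0.07 ± 0.09 (adjusted p = 0.632). TLR13, a receptor for bacterial ribosomal RNA that is present in mice (*Tlr13*, ENSMUSG00000033777, chrX:106143204-106160493, plus strand), was the most abundant endosomal receptor per kilobase. It stood at 473, 467, 549.7 and 527 CPM in Ctrl CL and at 408, 392, 516 and 404 CPM in Ctrl IL, and at 471, 455 and 449 CPM in cKO CL and 417, 451 and 491 CPM in cKO IL. The hemispheres overlapped in both genotypes, and the log2 fold changes of -0.15 ± 0.13 (SE, adjusted p = 0.574) in Ctrl and 0.05 ± 0.10 (adjusted p = 0.740) in cKO did not pass. TLR9, the receptor for CpG DNA (*Tlr9*, ENSMUSG00000045322, chr9:106222598-106226883, plus strand), stood at 3.03, 2.56, 3.25 and 2.05 CPM in Ctrl CL and at 3.19, 1.79, 1.80 and 1.37 CPM in Ctrl IL, and at 5.06, 7.17 and 4.18 CPM in cKO CL and 5.15, 4.99 and 2.13 CPM in cKO IL. It too overlapped between the hemispheres, with log2 fold changes of -0.25 ± 0.25 (SE, adjusted p = 0.653) in Ctrl and -0.32 ± 0.32 (adjusted p = 0.503) in cKO.

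MyD88, the adaptor shared by these receptors, showed no difference that passed. *Myd88* (ENSMUSG00000032508, chr9:119335934-119341411, minus strand) stood at 172, 158, 139 and 122 CPM in Ctrl CL and at 151, 148, 138 and 126 CPM in Ctrl IL, and at 125, 119 and 143 CPM in cKO CL and 154, 163 and 138 CPM in cKO IL. The hemispheres overlapped in both genotypes. The log2 fold change was 0.02 ± 0.21 (SE, adjusted p = 0.981) in Ctrl and 0.31 ± 0.13 (adjusted p = 0.116) in cKO. *Myd88* shares 290 exonic bases with *Acaa1a* on the opposite strand, and since no source used here states a strand setting, reads in those bases cannot be told apart.

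Cell markers moved between the hemispheres along with the receptors. Of the 8 microglial markers, 6 fell in IL in each genotype, among them *P2ry12* (-1.37 in Ctrl and -1.37 in cKO on the log2 scale) and *Siglech* (-1.23 and -0.997), and the summed level was 17271 to 18292 CPM in Ctrl IL against 28712 to 35660.3 in Ctrl CL, and 14209.6 to 15426 in cKO IL against 24127 to 26566 in cKO CL (without *Fcrls*, 13831 to 14901 in Ctrl IL and 13722 to 15007 in cKO IL). Of the 8 markers of infiltrating monocytes, 5 rose in IL in each genotype, with sums of 603 to 896 CPM in Ctrl IL against 115 to 701 in Ctrl CL, and of 586 to 786 in cKO IL against 112 to 309 in cKO CL. Without *Fn1*, the other 7 summed to 154 to 360 CPM in Ctrl IL against 80.5 to 672 in Ctrl CL, and to 200 to 265 in cKO IL against 94.1 to 206 in cKO CL. In Ctrl, *Ly6c2* (-1.03), *Chil3* (-0.68) and *Plac8* (0.03) of this list did not pass. The summed level of the 10 neutrophil markers overlapped between the hemispheres in Ctrl and not in cKO, with sums of 197 to 1093 CPM in Ctrl IL against 595 to 8067 in Ctrl CL, and of 274 to 449 in cKO IL against 637 to 1767 in cKO CL. Of these neutrophil genes 6 fell in cKO and none passed in Ctrl, where 9 passed with the mouse as a replicate block. *Ms4a7* of the border-associated macrophages, *Ccr7* of the dendritic cells and *Gfap* of the astrocytes rose in both genotypes, *Nkg7*, *Gzma* and *Klrb1c* of the T and NK cells fell in Ctrl, and of the response to dissociation *Fos*, *Jun*, *Hspa1a* and *Hspa1b* fell in cKO. *Mobp*, a myelin gene, rose in cKO. With the paired fit over the 2 cKO mice, *Mobp* (adjusted p = 0.0699) and *Fos* (adjusted p = 0.137) were not called, while *Ccr2* of the monocytes (0.75), *Pf4* of the border-associated macrophages (1.51) and *Gja1* of the astrocytes (1.09) rose and *Retnlg* of the neutrophils (-1.34), *Mrc1* of the border-associated macrophages (-0.69) and *Fosb* of the response to dissociation (-0.55) fell. No marker of B cells, neurons or endothelial cells passed in either genotype without the block. With the mouse as a replicate block in Ctrl, *Cd79b* of the B cells (-0.40) and *Ly6c1* of the endothelial cells (-1.11) fell, as did 3 markers of border-associated macrophages, 2 of oligodendrocytes, 4 of the response to dissociation and 1 more each of microglia, dendritic cells and T and NK cells. The part of these cells in the differences of *Cd14*, *Tlr2*, *Tlr4* and *Tlr7* was not tested.

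Between the genotypes, none of the 10 genes was called in either hemisphere, with or without the alternatives tried. In the IL hemispheres 114 of 16919 genes (0.674%) were called and none of the members, of which 4 (*Tlr1*, *Tlr2*, *Tlr4* and *Tlr6*) had an unadjusted p under 0.05, against 8.93% of all genes. In the CL hemispheres 144 of 16603 genes (0.867%) were called and none of the members, of which 2 (*Tlr6* and *Tlr9*) had an unadjusted p under 0.05, against 9.99% of all genes. In each hemisphere 2 members did not overlap between 3 cKO and 4 Ctrl libraries, against 10.3% of all genes in IL and 9.99% in CL. These were *Tlr2* (higher in cKO) and *Tlr6* (lower) in IL, and *Tlr9* (higher) and *Tlr6* (lower) in CL. After scaling, *Tlr1* (higher) and *Tlr4* (lower) did not overlap in IL either (4 in all, against 10% of all genes), and in CL the same 2 did not overlap (against 9.26%). Of the cell markers, *Fcrls*, a microglial gene, was lower in cKO in both hemispheres (-2.99 in IL and -3.10 in CL on the log2 scale), *Mobp* was lower in CL (-1.71), and no other marker was called. The neutrophil markers summed to 637 to 1767 CPM in cKO CL and to 595 to 8067 CPM in Ctrl CL, and the part of this in the comparison was not tested.

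On the log2(CPM + 1) scale of the fits, *Tlr2* had the largest difference of the members between the genotypes in IL. There all 3 cKO libraries (1489.6 to 2569.6 CPM) were above all 4 Ctrl libraries (1042 to 1262 CPM). The log2 fold change was 0.81 ± 0.24 (SE, 95% interval 0.26 to 1.35), with an unadjusted p of 0.00890 and an adjusted p of 0.281. In CL its log2 fold change was 0.20 ± 0.33 (95% interval -0.53 to 0.94, adjusted p = 0.850), and the 3 cKO libraries spread from 531 to 1467 CPM around the Ctrl values. *Tlr9* was higher in every cKO CL library (4.18 to 7.17 CPM) than in every Ctrl CL library (2.05 to 3.25 CPM). Its log2 fold change there was 0.76 ± 0.24 (SE, adjusted p = 0.277), and in IL, where the cKO library of mouse 3592 lay among the Ctrl libraries, it was 0.72 ± 0.33 (adjusted p = 0.597). The pseudocount of 1 understates the change of this low gene, whose mean deposited CPM in IL was 4.09 in cKO and 2.04 in Ctrl. For *Tlr2* these means were 2035 and 1147 CPM. *Tlr6* gave -0.35 ± 0.14 (adjusted p = 0.522) in IL and -0.38 ± 0.17 (adjusted p = 0.482) in CL. *Tlr4* gave -0.34 ± 0.14 (adjusted p = 0.496) in IL and -0.28 ± 0.16 (adjusted p = 0.590) in CL, and *Cd14* gave 0.23 ± 0.34 (adjusted p = 0.946) and 0.13 ± 0.25 (adjusted p = 0.868). For *Cd14* the 95% interval in IL ran from -0.55 to 1.01 and so covered both directions. The remaining members were between -0.50 (*Ly96* in CL, adjusted p = 0.554) and 0.27 (*Tlr1* in IL, adjusted p = 0.540). The sum of *Tlr1* and *Tlr6* gave a two-sided exact permutation p of 0.629 in IL and 0.171 in CL.

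**Figure D4:**
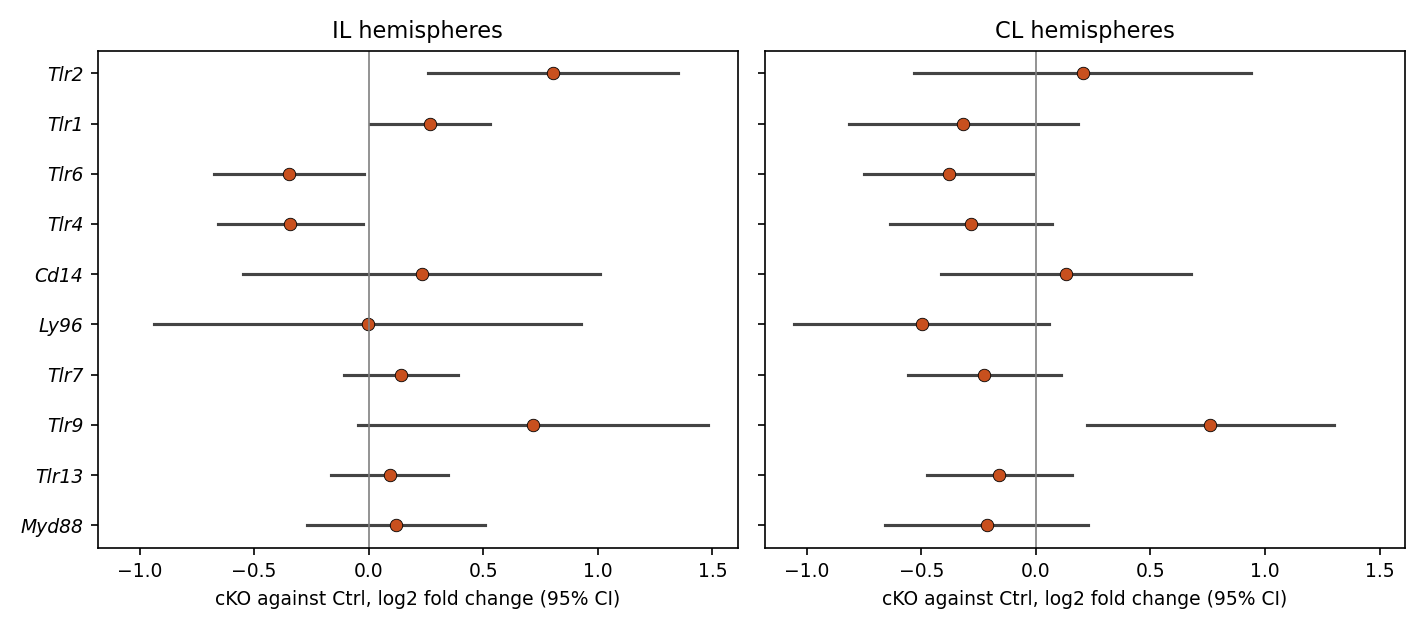
Log2 fold change of cKO against Ctrl for the 10 genes in the IL and the CL hemispheres, with 95% confidence intervals from limma (3 cKO and 4 Ctrl libraries each). The intervals of *Tlr2*, *Tlr1*, *Tlr6* and *Tlr4* in IL and of *Tlr6* and *Tlr9* in CL do not cover 0 before adjustment over all genes, and none of these genes passed after it.

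Whether the difference between the hemispheres itself depended on the genotype was examined as an interaction over all 14 libraries. No gene was called (0 of 18476, that is 0%, with 465 at an unadjusted p under 0.05 in limma), and no member had an unadjusted p under 0.05. With the mouse as a random effect 3 genes were called, none of them a member. The interaction was 0.58 ± 0.46 (SE) on the log2 scale for *Tlr2*, 0.08 ± 0.44 for *Cd14* and -0.08 ± 0.21 for *Tlr4*, each with an adjusted p of 0.9999. The smallest p among the members belonged to *Tlr1* (0.57 ± 0.27, unadjusted p = 0.0543) and *Tlr7* (0.35 ± 0.18, unadjusted p = 0.0694). The 95% interval for *Tlr2* ran from -0.40 to 1.56, so a difference of the size seen between the hemispheres in Ctrl was within it.

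The 95 other genes of the pathway changed between the hemispheres in part. In Ctrl 12 rose and 2 fell of 95 tested (14.7% called, against 6.69% of all genes), and with the mouse as a replicate block 23 rose and 11 fell (35.8%, against 20.2% of all genes), with no call lost. In cKO 21 rose and 11 fell of 94 tested (34.0%, against 22.7%). With the paired fit over the 2 cKO mice, *Tlr11*, *Ctsb*, *Tirap*, *Pik3ap1*, *Tab2*, *Peli1*, *Irak3*, *Rnf216* and *Irf5* were no longer called (adjusted p from 0.0636 for *Peli1* to 0.170 for *Tirap*), while *Relb*, *Tnf*, *Il12b* and *Cxcl10* became called as higher in IL, which left 27 called against 12.9% of all genes. The median log2 fold change was 0.07 in Ctrl and 0.10 in cKO, beside -0.03 and 0.01 for all genes tested.

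Among 8 endogenous ligands of TLRs, *Fn1* (fibronectin) and *Vcan* (versican), both matrix proteins, rose in Ctrl (4.03 and 1.11 on the log2 scale), and *Fn1*, *Tnc* (tenascin C) and *Vcan* rose most in cKO (3.41, 1.89 and 1.31). *Fn1* and *Vcan* are also in the list of monocyte markers. *S100a8* and *S100a9*, alarmins that are also in the list of neutrophil markers, fell in cKO by 1.46 and 1.33, and *Hspd1*, a mitochondrial chaperone, rose by 0.57. In Ctrl *S100a8* and *S100a9* stood at -2.66 and -2.83 on the log2 scale, with an adjusted p of 0.133 and 0.130 without and 0.0202 and 0.0145 with the mouse as a replicate block, and *Tnc* (1.38) rose with the block too. Of 9 other receptors, *Cd36*, a scavenger receptor that works with TLR2, rose in both genotypes (2.24 and 1.73), and *Tlr5*, the flagellin receptor, fell in both (-1.29 and -1.73). *Tlr8* rose (0.88) and *Tlr3*, the receptor for double-stranded RNA, fell (-0.74) in Ctrl, and *Tlr12* and *Tlr11* fell in cKO (-0.96 and -0.49). The level of *Tlr11* was below 1 CPM in every library.

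Of 12 genes of receptor chaperones, transport and endosomal processing, *Rab7b* (2.87 in Ctrl and 2.14 in cKO) and *Ctsb*, a cathepsin (1.34 and 1.02), rose in both genotypes, and *Slc15a3* rose in cKO (0.60). Of 21 adaptors and kinases, *Ikbke*, an IκB kinase-related kinase, rose in both genotypes (2.43 and 2.22), while in cKO *Map3k8* and *Pik3ap1* rose (0.61 and 0.44) and *Peli1*, *Tirap* and *Tab2* fell (-0.53, -0.47 and -0.41). *Tirap* encodes the adaptor that links TLR2 and TLR4 to MyD88. Under the replicate block in Ctrl, *Pik3ap1* (0.40), *Irak4* (0.38) and *Map3k7* (0.33) rose and *Tirap* (-0.39) and *Peli1* (-0.39) fell as well, as did *Cnpy3* (-0.33) of the first list, in which *Slc15a3* (0.34) rose. Of 18 inhibitors of TLR signalling, *Lilrb4a* (2.05 and 2.05) and *Zc3h12a*, an RNase that degrades cytokine mRNA (0.82 and 0.66), rose in both genotypes. In cKO *Axl* (0.95) and *Irak3* (0.58) rose too, and *Rnf216* fell (-0.41). With the block in Ctrl, *Axl* (0.75) and *Irak3* (0.65) rose and *Socs1* (-0.75) fell. Of 13 transcription factors, none passed in Ctrl, and in cKO *Irf7* (2.08) and *Nfkb2* (0.94) rose and *Nfkb1* (-0.66) and *Irf5* (-0.38) fell. With the mouse as a replicate block in Ctrl, *Irf7* rose (1.51) and *Nfkb1* (-0.54), *Atf3* (-0.48) and *Irf5* (-0.36) fell.

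Of 14 early response genes, *Ptgs2* (2.59), *Cxcl2* (1.66) and *Nos2* (1.40) rose in Ctrl, and *Cxcl1* (2.59), *Ptgs2* (2.27) and *Cxcl2* (2.21) rose in cKO, followed by *Il1b* (1.11). *Nos2* was not among the 13 genes of this list that entered the test in cKO, where it was at 0.30 to 3.21 CPM in IL. Under the replicate block, *Cxcl1* (1.87), *Il1b* (1.19) and *Il12b* (1.08) rose in Ctrl as well. *Ptgs2* encodes the inducible cyclooxygenase, and *Cxcl1* and *Cxcl2* encode chemokines for neutrophils. *Nos2* was at most 4.89 CPM in any library of Ctrl IL. The median of this list was 0.41 in Ctrl and 1.11 in cKO, over 14 and 13 genes, the highest of the 7 lists in both.

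**Figure D5:**
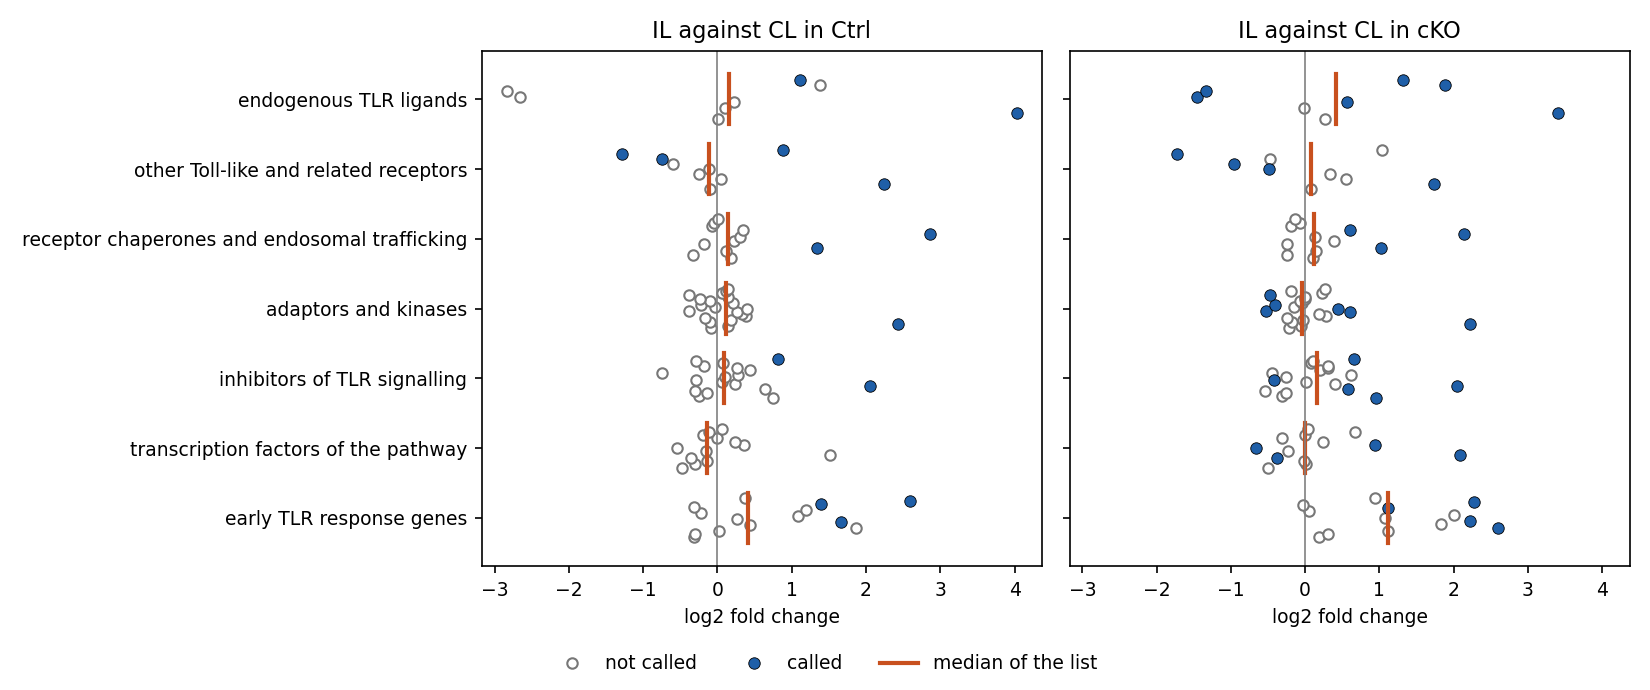
Log2 fold change between the hemispheres (IL over CL) by genotype for the 7 lists of pathway genes, with 1 point per gene, filled where it was called, and a bar at the median of the list. The early response genes have the highest median in both genotypes (0.41 and 1.11).

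Between the genotypes no pathway gene was called in either hemisphere or in the interaction by limma, with 18 of 94 in IL, 9 of 93 in CL and 3 of 95 in the interaction at an unadjusted p under 0.05 (19.1%, 9.68% and 3.16%, against 8.93%, 9.99% and 2.52% of all genes). The pathway genes with the smallest p in IL were *Tnf* (1.28 ± 0.24, SE, adjusted p = 0.0769), which was at 1309.9 to 2052 CPM in cKO IL and at 592 to 927 CPM in Ctrl IL, and *Tnip3*, an inhibitor of NF-κB activation (0.91 ± 0.19, adjusted p = 0.117). A call arose where 1 library was left out. These were *Tnf* (1.17, adjusted p = 0.0343), *Tnip3* (0.99, adjusted p = 0.0287) and *Hmgb1* (-0.73, adjusted p = 0.0182) without the Ctrl IL library of 3546, and *Tnf* (1.53, adjusted p = 0.0318), *Irf7* (1.70, adjusted p = 0.0400) and *Il12b* (3.20, adjusted p = 0.0329) without the cKO IL library of 3592. With the mouse as a random effect *Ifnb1* (1.57, adjusted p = 0.0369) and *Tlr3* (0.69, adjusted p = 0.0433) were called. In the other lists the smallest adjusted p in IL was 0.159 (*Irf7*, 1.33), 0.197 (*Tlr3*, 0.67), 0.243 (*Hmgb1*, -0.62), 0.296 (*Slc15a3*, 0.49) and 0.463 (*Pik3ap1*, 0.35). In CL the smallest was 0.248 (*Rel*, 0.65).

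The genes whose log2 levels were most like those of a member over the 14 libraries were found among 9744 genes with a mean log2 value of at least 3, and the libraries share groups, mice and depth. Next to *Tlr2* these were *Prr5l* (Pearson r = 0.971), *Klf10* (0.965) and *Ifit2* (0.965). Next to *Cd14* they were *Ero1l* (0.966), *Gm4735* (0.959) and *Tes* (0.958), and next to *Tlr4* they were *Selenop* (0.971), *Dirc2* (0.966) and *Lpar6* (0.958).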

How the data were processed

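The authors mapped reads of Smart Seq v4 libraries with STAR to mm10 in Partek Flow 8.0 and deposited values named raw counts. The values of each library sum to 1000000, so the deposited values are CPM, and no count test was run. The step between low values gave the depth (79.0% to 83.5% of values under 100 reads were whole within 0.03). No deposited column was left out, and the authors' tables of comparisons (fold changes, p-values and group means) were not used. Symbols and positions came from GENCODE M21 (GRCm38), the build of mm10, in which 33802 of 33939 identifiers had a symbol.

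CPM were scaled between libraries with trimmed-mean-of-M-values factors of 0.862 to 1.17 and fitted as log2(CPM + 1) with limma 3.58.1 in R 4.3.3, using the libraries compared, empirical Bayes and a trend. A pseudocount of 1 understates changes of low genes. Genes entered with 10 reads at median depth (0.288 to 0.353 CPM, by comparison) in a number of libraries equal to the size of the smaller group, and 15 reads in total, and all 10 members entered every comparison. The Benjamini-Hochberg adjustment ran over every gene tested. Python 3.11.15 with scipy 1.17.1 gave exact permutation tests.

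The members, the lists of pathway genes and markers and the rule for named genes were chosen with earlier results of these data known. Overlaps after scaling and marker sums without 1 gene were added after seeing the data. The rule took up to 3 higher and 3 lower called genes of each pathway list by size, or up to 2 by p where none was called. *Hspd1*, *Irak3*, *Il1b*, *Il12b* and the calls of single alternatives were named after their values were seen. Hemispheres of the same mouse were taken as pairs. Their deviations from the group means correlated at 0.215 to 0.630 across genes in 6 mice, against -0.580 to 0.529 in 19 other pairs of the genotype. The gene removed in cKO is not reported here.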

Additional observations from a re-analysis of the deposited data

Results flagged for a closer look

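*Tlr13* in Ctrl IL had 1 library far from the others, that of mouse 3546 at 516 CPM beside 392 to 408 CPM, and the gap took 0.868 of the range of the group against a limit of 0.829 for 4 libraries. Of 20 groups of 4 libraries tested in this way (10 genes in Ctrl CL and Ctrl IL), it was the only one, and chance alone gives about 1 in 20. The distance is that of deposited CPM, since after scaling between libraries the 4 values lay at 398 to 473 and the largest gap took 0.564 of the range. Within mice, *Tlr13* was lower in IL in all 4 Ctrl mice and higher in IL in both cKO mice, with a median log2 difference of 0.19 in cKO. The interaction of genotype and hemisphere in limma over all 14 libraries was 0.23 ± 0.16 (SE, unadjusted p = 0.166, adjusted p = 0.9999). That fit has no term for the mouse, so it does not test the within-mouse difference. By the deposited CPM without further scaling, only 1 of the 6 mice had a higher value in IL.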

How the results depend on the processing

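Of the 10 genes, the count called between the hemispheres of Ctrl rose from 0 to 2 with upper-quartile scaling, to 4 with the deposited CPM without further scaling, to 1 with all 14 libraries in a single fit, to 4 with the mouse as a random effect and to 4 with the mouse as a fixed replicate block, and it was 0 to 1 when a library was left out. In cKO it was 4 with the random effect, which added *Tlr1*, and fell from 3 to 1 in the single fit of 14 libraries and to 1 with the mouse as a replicate block in the paired fit, and it was 1 to 4 when a library was left out. Of the pathway genes, 7 were called in Ctrl without a filter on low values and 34 with either form of the replicate block, against 14, and 6 to 18 when a library was left out (6 without CL of 3545, 7 without IL of 3541 or CL of 3546, 8 without IL of 3545). In cKO 18 were called without the filter, 20 when 14 libraries were fitted together and 16 at a fold change of at least 2, against 32, and 16 to 27 when a library was left out (16 without IL of 784 or of 791, 18 without CL of 788). Between the genotypes in IL, 1 was called with the deposited CPM (*Tnf*) and 2 with the mouse as a random effect, and 0 to 3 when a library was left out. No alternative called any of the 10 genes between the genotypes, and the replicate block changed no other call of theirs than those given.

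The log2 fold changes that turned direction belonged to differences that were not called. Between the hemispheres of Ctrl, the deposited CPM gave -0.065 for *Tlr1* and -0.061 for *Myd88*, and leaving out a library gave -0.083 to 0.069 and -0.12 to 0.14. In cKO the deposited CPM gave -0.018 for *Tlr13*, and *Ly96* was 0.038 when 14 libraries were fitted together, 0.042 with the mouse as a random effect and 0.0079 with the mouse as a fixed replicate block. Leaving out a library gave -0.14 to 0.21 for *Ly96* and -0.50 to 0.032 for *Tlr9* there. Between the genotypes, *Ly96* in IL was 0.0049 with median-ratio scaling, 0.0078 with a pseudocount of 0.5, 0.021 with one of 0.1 and -0.38 to 0.24 when a library was left out, and *Tlr2* in CL was -0.17 to 0.56. The interaction of *Tlr6* was -0.080 with upper-quartile and -0.050 with median-ratio scaling, and that of *Cd14* was -0.016 with upper-quartile scaling, while leaving out a library gave -0.092 to 0.095 for *Tlr6*, -0.22 to 0.31 for *Tlr9* and -0.12 to 0.33 for *Cd14*. The cause of these shifts was not tested.

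Over all genes, the calls between the hemispheres were 545 without a filter, 2051 in a single fit of 14 libraries, 3306 with the fixed block and 4402 with the random effect in Ctrl, against 1096. In cKO they were 2507, 1430, 2164 and 3182, against 3811. A fold change of at least 2 left 554 and 815. Leaving out a library gave 495 (IL of 3541) to 1446 (IL of 3546) in Ctrl and 1882 (IL of 784 or of 791) to 3548 (CL of 3592) in cKO. Between the genotypes it gave 49 (cKO IL of 784 or of 791) to 293 (Ctrl IL of 3546) in IL, against 114, and 70 (cKO CL of 791) to 165 (Ctrl CL of 3546) in CL, against 144. Other settings gave 66 (no filter) and 182 (random effect) in IL, and 78 (no filter), 85 (10 reads in every library), 258 (14 libraries fitted together) and 281 (random effect) in CL. Groups of 3 and 4 libraries limit what could be called. *Tlr9* and *Ly96* had the fewest reads.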
